A study of Rattus norvegicus with 23 samples.

Results

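The genes described here are 5 genes that mark brain tissue bordering or near the dorsal striatum: Slc17a7 for the cerebral cortex, Ttr and Igf2 for the choroid plexus and its surroundings, and Oxt and Avp for the hypothalamus. They were chosen by Ensembl identifier and chromosome, and all 5 were found among the 32552 genes of the count files. Slc17a7 encodes a vesicular glutamate transporter that fills the synaptic vesicles of cortical pyramidal neurons. The projection neurons of the striatum are GABAergic, and the cortex lies directly over them. The lateral ventricle, which runs along the inner edge of the striatum, holds choroid plexus, whose epithelium makes transthyretin (Ttr), a carrier of thyroid hormone, in large amounts. Igf2, a growth factor, is made in the adult brain mainly by the choroid plexus and the meninges. Oxt and Avp encode the precursors of oxytocin and vasopressin, 2 peptide hormones made by large neurons of the hypothalamus.

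RNA sequencing was performed on the dorsal striatum of 23 male adult wild type Long Evans rats, 1 library per rat. Saline control rats (CT, n = 6) self-administered saline, and the other rats self-administered methamphetamine (METH) at 0.1 mg/kg/infusion for 22 days, followed by 8 days in which presses could bring footshocks of 0.18 to 0.36 mA. After 15 days of abstinence they had 12 more days of access, with footshocks of 0.3 mA on 3 days. The paper's methods place these 3 days at the end of the 12, while its results describe them after the 12. A second abstinence followed. Cue-induced drug seeking was tested on days 1 and 15 of each abstinence, and brains were taken the day after the last test. Always shock-resistant rats (ASR, n = 6) kept pressing in both footshock phases, delayed shock-resistant rats (DSR, n = 5) kept pressing only in the second, and always sensitive rats (AS, n = 6) reduced their pressing in both. The labels call these groups Control, METH Shock Resistant, Resurgence METH Shock Resistant and METH Shock Sensitive. The 3 METH groups were thus sorted by behavior after the same drug access, and CT rats had neither METH nor footshocks. The striata were dissected from each brain by atlas coordinates, and the rat codes carry a number, 7 or 8, that the labels do not explain and that is called the cohort here (13 and 10 rats). Libraries held 18967015 to 28137676 counts (median 23069812). The files name genes by identifier alone, and no table used here pairs these identifiers with symbols, so the defining markers of striatal neurons could not be read and the labelled tissue was not checked against them.

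In the annotation of Rnor6.0 used for the counts, Slc17a7 (ENSRNOG00000020650) lies on the plus strand at chr1:101161252-101173174 with 12 exon blocks. Ttr (ENSRNOG00000016275) lies on the minus strand at chr18:15532963-15540177 with 4, and Igf2 (ENSRNOG00000020369) on the minus strand at chr1:215828102-215846911 with 8. Igf2 is overlapped by 2 short genes, and whether reads were counted by strand is not given in the sources used here. Oxt (ENSRNOG00000021225) lies on the plus strand at chr3:123106694-123107534 and Avp (ENSRNOG00000021229) on the minus strand at chr3:123117492-123119460, each with 3 exon blocks. The 2 hormone genes are neighbors that point towards each other with 9957 bases between them. Each has a middle exon block of 202 bases, the part of the gene known for its near-identical neurophysin sequence, and only uniquely mapped reads were counted, so the split of reads between them is uncertain there.

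The sequences upstream of Oxt and Avp are shown because these 2 neighbors are the pair of hormone genes whose levels are set side by side further on. They are RefSeq sequences of the 250 bases before the transcript start, on build GRCr8, at chr3:138235504-138235753 on the plus strand for Oxt and chr3:138248523-138248772 on the minus strand for Avp. Capitals mark, on either strand, the letters AGGTCA (one arm of a nuclear receptor site), CACGTG (an E-box, the kind of site bound by clock factors) and ATAAA (an A/T-rich box).
Oxt: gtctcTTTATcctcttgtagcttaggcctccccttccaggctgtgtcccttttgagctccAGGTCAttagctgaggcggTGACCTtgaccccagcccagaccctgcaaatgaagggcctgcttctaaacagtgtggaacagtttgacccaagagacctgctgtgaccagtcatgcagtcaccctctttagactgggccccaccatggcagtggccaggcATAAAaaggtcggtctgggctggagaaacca
Avp: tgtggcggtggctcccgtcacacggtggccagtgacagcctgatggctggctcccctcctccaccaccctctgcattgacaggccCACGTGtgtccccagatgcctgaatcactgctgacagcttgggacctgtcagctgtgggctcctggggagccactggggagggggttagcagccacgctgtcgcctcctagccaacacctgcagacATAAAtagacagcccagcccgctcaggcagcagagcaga
The Oxt sequence held AGGTCA 2 times, beginning 190 bases upstream of the start on its own strand and 171 bases upstream on the opposite strand. The Avp sequence held CACGTG once, 165 bases upstream. Each held ATAAA close to the start, 31 bases upstream in Oxt and 39 in Avp, and Oxt held it a second time, on the opposite strand, 245 bases upstream. Of 33469 RefSeq sequences of the same length, 14.1% held AGGTCA, 5.59% held CACGTG and 39.3% held ATAAA. These are matches of letters and not measured binding.

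The log2 level of all 5 genes spread far more between libraries of the same group than that of most genes did. The SD of log2 CPM (CPM, counts per 1000000 on TMM-scaled library sizes) within groups was 2.23 for Ttr, 1.36 for Oxt, 1.15 for Avp, 1.13 for Slc17a7 and 0.76 for Igf2, against a median of 0.19 over the 16275 genes tested. By this spread Ttr ranked 2nd, Oxt 43rd, Avp 87th, Slc17a7 106th and Igf2 574th among those genes. Oxt and Avp had medians of only 5 and 10 counts per library, so counting error adds to their spread. They were not ranked against genes of a like level. Per kilobase of exon, scaled to 1000000 over all genes, the median level over the 23 rats was 170 for Slc17a7, 144 for Ttr, 12.2 for Igf2, 1.35 for Avp and 0.689 for Oxt. The ranges of Slc17a7 (10.6 to 416) and Ttr (26.8 to 5486) overlapped widely, so their order differed from rat to rat, while Oxt and Avp lay far below both. In bulk tissue, more cells of a type and more RNA per cell cannot be told apart.

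**Figure D1:**
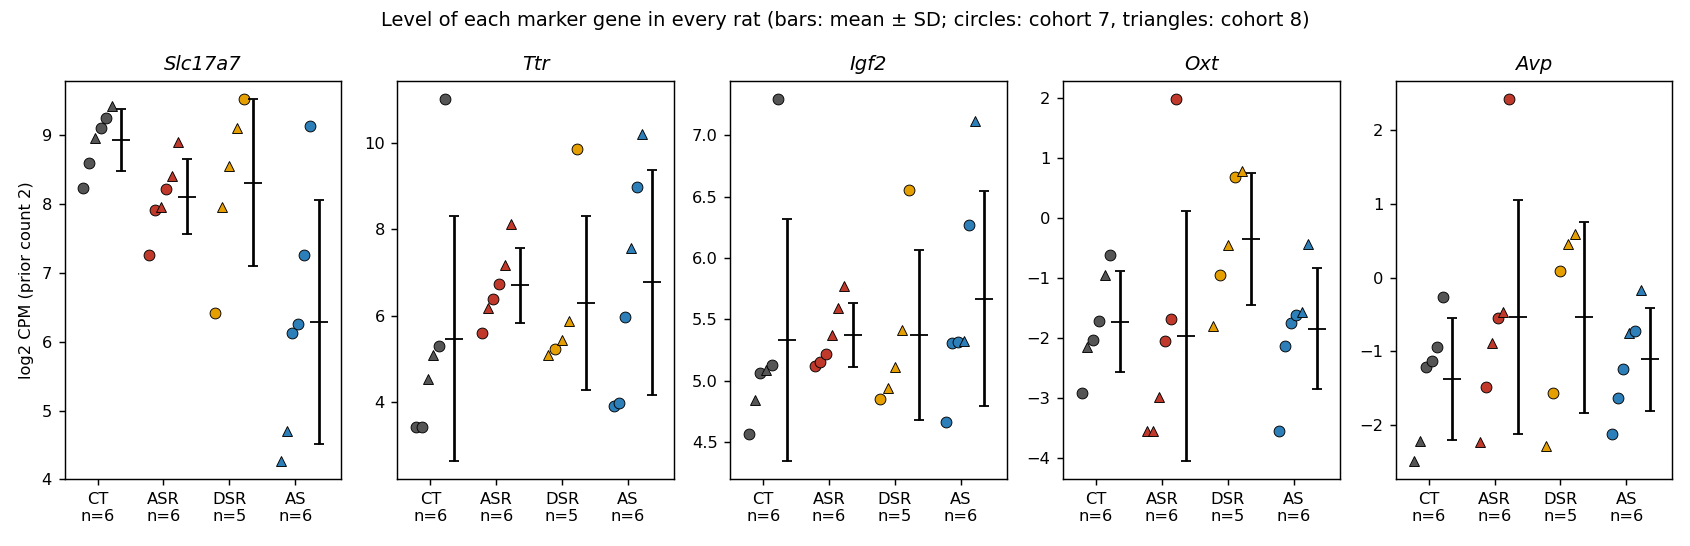
Level of the 5 marker genes in every rat, as log2 CPM with a prior count of 2, by group. Each point is 1 rat, bars give the mean ± SD of the group, circles are cohort 7 and triangles cohort 8. Slc17a7 was low in 5 of 6 AS rats, Ttr and Igf2 had single high rats in CT and DSR, and 1 ASR rat had the most Oxt and Avp.

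Slc17a7 was the marker with the smallest p for a difference between groups, lowest in AS rats and highest in CT rats. In CT rats its level ran from 301 CPM through a median of 525 to 692 CPM. In ASR rats the lowest value was 154 CPM, the median 273 CPM and the highest 477 CPM. The 5 DSR rats had 85.6, 249, 378, 550 and 738 CPM. In AS rats it ran from 19.1 CPM through a median of 72.9 to 565 CPM, and 5 of 6 AS rats were below every CT rat. The exception, AS rat Grp7-L10, had 565 CPM, as much as a CT rat, while the next highest AS rat had 153 CPM. Of the ASR rats, 4 of 6 were below every CT rat, and every group overlapped with every other.

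In the edgeR quasi-likelihood fit of all 4 groups, Slc17a7 was lower in AS than in CT rats by a log2 fold change of -1.74 (SE 0.60, 3.35-fold, 95% interval -2.99 to -0.50, unadjusted p 0.0082), which did not pass after Benjamini-Hochberg adjustment over all genes (adjusted p = 0.113). It was higher in DSR than in AS rats by 1.40 (SE 0.62, adjusted p = 0.164) and in ASR than in AS rats by 0.95 (SE 0.59, adjusted p = 0.629). ASR and CT rats differed by -0.79 (SE 0.59, adjusted p = 0.949), DSR and CT rats by -0.34 (SE 0.62, adjusted p = 0.982), and ASR and DSR rats by -0.45 (SE 0.61, adjusted p = 0.890). Exact two-sided permutation tests on log2 CPM gave p = 0.0108 for AS vs CT (difference of means -2.64), p = 0.0173 for ASR vs CT (-0.82) and p = 0.0455 for ASR vs AS (1.82). After adjustment over the 30 tests of 5 genes and 6 pairs of groups, these were 0.260, 0.260 and 0.303. The smallest p this test could give was 0.00216 for 6 against 6 rats and 0.00433 for 5 against 6. A lone difference could therefore not pass over 30 tests, even between groups that do not overlap. Thus none of the 6 differences passed an adjusted test with all rats included.

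The result for Slc17a7 turned on 1 rat. Without AS rat Grp7-L10, the same edgeR fit gave -2.91 for AS vs CT (adjusted p = 0.00245) and 2.56 for DSR vs AS (adjusted p = 0.0151), both past the threshold, and 2.11 for ASR vs AS (adjusted p = 0.108). With any of the other 22 rats left out, the adjusted p of AS vs CT stayed above 0.05 (0.0621 to 0.228). The cohorts also differed. In cohort 8, which has 2 AS rats (25.9 and 19.1 CPM) and 2 CT rats (692 and 499 CPM), edgeR gave -4.73 for AS vs CT (adjusted p = 0.00345), 3.99 for ASR vs AS (adjusted p = 0.00898) and 4.13 for DSR vs AS (adjusted p = 0.00791). In cohort 7, which holds Grp7-L10, the values were -1.10, 0.10 and 0.93, and none passed. No marker gene passed the test of the cohort itself (0 of 5, edgeR adjusted p of 1.00 for each, against 0% of all genes at an adjusted p under 0.05 and 2.25% at an unadjusted p under 0.05). The errors were wide, with a fitted shift from cohort 7 to cohort 8 of -0.77 for Oxt (SE 0.76) and -0.44 for Ttr (SE 1.21). A shift could thus have been missed.

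Ttr had the second widest spread within groups of all genes tested, and its high rats lay in different groups. The 6 CT rats ran from 10.6 CPM through a median of 28.4 to 2057 CPM, and the 6 ASR rats from 48.5 through 95.03 to 277 CPM. The 5 DSR rats had 33.9, 37.5, 43.1, 58.6 and 922 CPM. In AS rats the lowest level was 14.8 CPM, the median 126 CPM and the highest 1184 CPM. The 3 highest rats, CT Grp7-R12, AS Grp8-L5 and DSR Grp7-L2, belonged to 3 different groups, and all groups overlapped. Without such a rat the groups were narrower, since the next highest CT rat had 39.4 CPM and the next highest DSR rat 58.6 CPM.

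No comparison of Ttr passed the edgeR test (adjusted p of 0.720 or more). The fitted difference was -1.57 for ASR vs CT (SE 1.27), -0.73 for DSR vs CT (SE 1.31) and -0.14 for AS vs CT (SE 1.23). On the scale of mean log2 CPM the same comparisons gave 1.24, 0.84 and 1.30, with the opposite sign. Without CT rat Grp7-R12 the fitted differences became 2.38, 3.22 and 3.80 (adjusted p = 0.945, 0.893 and 0.130), so the direction of every comparison of Ttr with CT turned on that rat. No direction can be given for Ttr between METH and saline rats.

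Igf2 tracked Ttr across rats over a narrower range of levels. The CT rats ran from 23.5 CPM through a median of 33.6 to 157 CPM and the ASR rats from 34.7 through 39.2 to 54.5 CPM. The 5 DSR rats had 28.8, 30.6, 34.4, 42.6 and 94.0 CPM, and the AS rats ran from 25.2 through 39.9 to 139 CPM. The 3 rats highest in Ttr were also the 3 highest in Igf2. Fitted log2 fold changes of Igf2 ran from -0.52 (ASR vs AS, SE 0.44) to 0.21 (AS vs CT, SE 0.44), with edgeR adjusted p of 0.634 or more, and all groups overlapped.

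Across the 23 rats the log2 CPM of Ttr and Igf2 correlated with Pearson r = 0.91 and Spearman rho = 0.81 (permutation p = 1e-05, the smallest that 100000 permutations can give, and 2e-05, adjusted over 10 pairs of genes 0.0001 and 0.0002). Without the 2 rats farthest from the median of Ttr r was 0.85, and without the 3 rats with the most Ttr it was 0.78. It was 0.92 in cohort 7, 0.89 in cohort 8 and 0.92 for deviations from group means, and each of these r passed the adjusted permutation test. With group in the edgeR model, Igf2 rose by 0.32 log2 units per log2 unit of Ttr (SE 0.025, adjusted p = 1.91e-08). Igf2 ranked 18th among 16274 genes by Spearman rho with Ttr, and Ttr ranked 9th for Igf2.

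**Figure D2:**
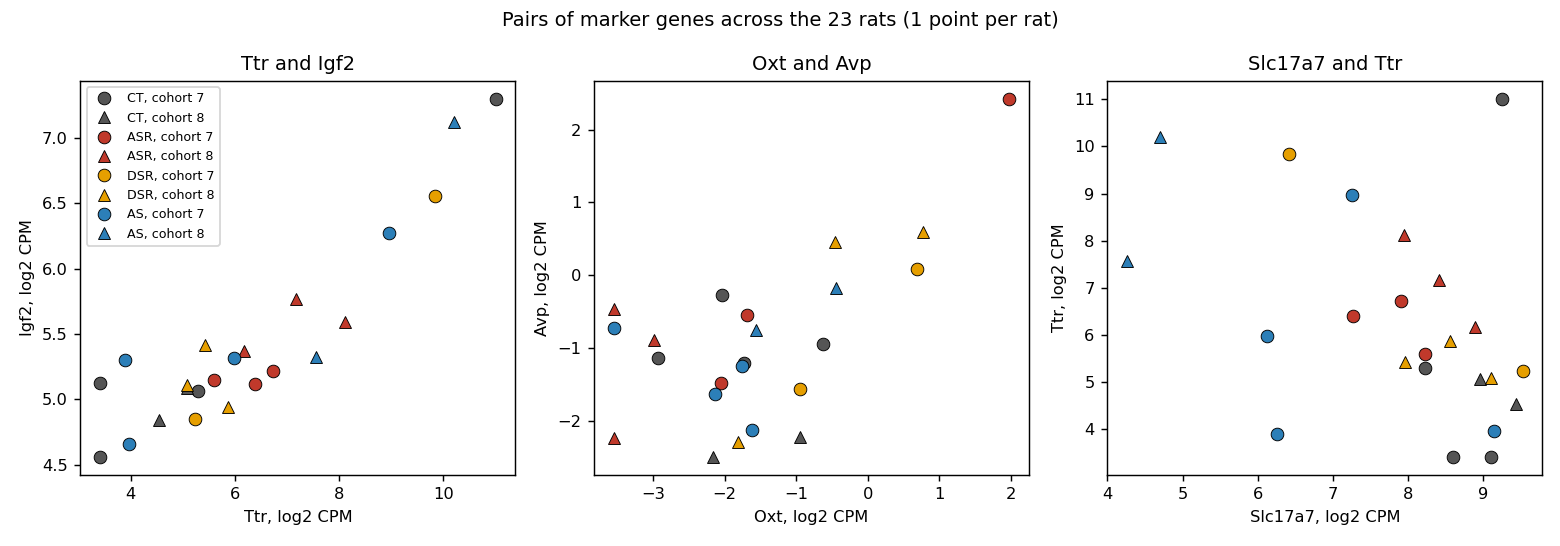
Log2 CPM of 3 pairs of marker genes, 1 point per rat, coloured by group (circles cohort 7, triangles cohort 8). Ttr and Igf2 lay along a line (r = 0.91), Oxt and Avp were highest together in 1 ASR rat, and Slc17a7 and Ttr showed a loose opposite trend (r = -0.43).

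Slc17a7 ran against the choroid plexus markers, weakly. Its r was -0.43 with Ttr and -0.39 with Igf2 (permutation p adjusted over 10 pairs 0.140 and 0.153), and rho was -0.49 and -0.52 (0.0635 and 0.057). With Ttr, r was -0.19 in cohort 7 and -0.78 in cohort 8 (adjusted permutation p = 0.805 and 0.059), and rho was -0.26 and -0.87 (0.626 and 0.0221). Without AS rats Grp8-L5 and Grp8-R10, which had the least Slc17a7, r was -0.25. The relation did not pass the test over all rats, and with Ttr it passed by rho in cohort 8. Without the 3 rats with the most Ttr, a setting chosen after seeing the data, rho was -0.60 with Ttr and -0.64 with Igf2. Both passed (permutation p adjusted over the pairs with Ttr or Igf2 0.0143 and 0.0104). In that setting r was -0.43 and -0.40 and did not pass (adjusted permutation p = 0.200 for each). For deviations from group means over all rats, rho was -0.36 with Ttr and -0.20 with Igf2 (adjusted permutation p = 0.237 and 0.64). With group in the edgeR model, the slopes of Ttr and Igf2 on Slc17a7 were -0.90 and -0.28 (adjusted p = 0.367 and 0.412). Neither passed.

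Oxt was sparse. The CT rats had 1 to 13 counts (median 0.188 CPM, range 0.0464 to 0.566 CPM) and the AS rats 0 to 13 counts (median 0.225 CPM, highest 0.652 CPM). In ASR rats the median was 0.0987 CPM and the highest value 3.86 CPM, from 104 counts in rat Grp7-L4, while no other ASR rat had more than 6 counts. The 5 DSR rats had 0.201, 0.434, 0.642, 1.53 and 1.63 CPM, from 5 to 41 counts. Oxt had 0 counts in 3 libraries (ASR Grp8-R4, ASR Grp8-R7 and AS Grp7-L10), where a count of 0 allows up to 0.128, 0.148 and 0.130 CPM (3 counts, for counting error only). That ASR rat, 3 DSR rats and 1 AS rat were above every CT rat, and the groups overlapped.

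Avp was low as well, with its highest value in the same ASR rat. The CT rats ran from 0.0924 CPM through a median of 0.359 to 0.744 CPM and the AS rats from 0.144 through 0.421 to 0.802 CPM. The ASR rats ran from 0.128 through 0.527 to 5.27 CPM, the last from 142 counts in rat Grp7-L4, against at most 0.639 CPM in the other ASR rats. The 5 DSR rats had 0.120, 0.253, 0.979, 1.28 and 1.43 CPM. The same 3 DSR rats, Grp7-R7, Grp8-L4 and Grp8-R1, had the most of both hormone transcripts in their group.

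In edgeR, Avp was higher in ASR than in CT rats by 1.82 (SE 0.75, unadjusted p = 0.0232, adjusted p = 0.949) and in ASR than in AS rats by 1.54 (SE 0.73, unadjusted p = 0.0453, adjusted p = 0.571). Without ASR rat Grp7-L4 these became 0.25 and -0.018. Oxt was higher in DSR than in CT rats by 1.72 (SE 0.98, adjusted p = 0.982) and in DSR than in AS rats by 1.83 (SE 0.99, adjusted p = 0.247). The exact two-sided permutation test gave p = 0.0433 for Oxt in DSR vs CT, and 0.303 after adjustment over 30 tests. With so few rats a lone difference of any size could not pass that adjustment. Oxt in ASR vs CT was 1.46 (SE 0.96) with all rats and -1.51 without Grp7-L4. No hormone comparison passed an adjusted test.

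Oxt and Avp correlated across rats with r = 0.62 (adjusted permutation p = 0.00735) and rho = 0.47 (0.0635). Without the rat farthest from the others, ASR Grp7-L4, r was 0.43 (unadjusted permutation p = 0.0444). Without the 2 rats farthest from the median of Oxt, ASR Grp7-L4 and DSR Grp8-L4, r was 0.30 (adjusted permutation p = 0.554), so the relation rested on those rats. With all rats, deviations from group means gave r = 0.67 (adjusted permutation p = 0.00485) and rho = 0.51 (0.0765). Within cohorts r was 0.70 and 0.52, and neither passed (adjusted permutation p = 0.0795 and 0.313). Avp ranked 216th by rho with Oxt and Oxt ranked 185th with Avp. The 2 hormone genes showed r between -0.19 and -0.0055 with Slc17a7, Ttr and Igf2.

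**Figure D3:**
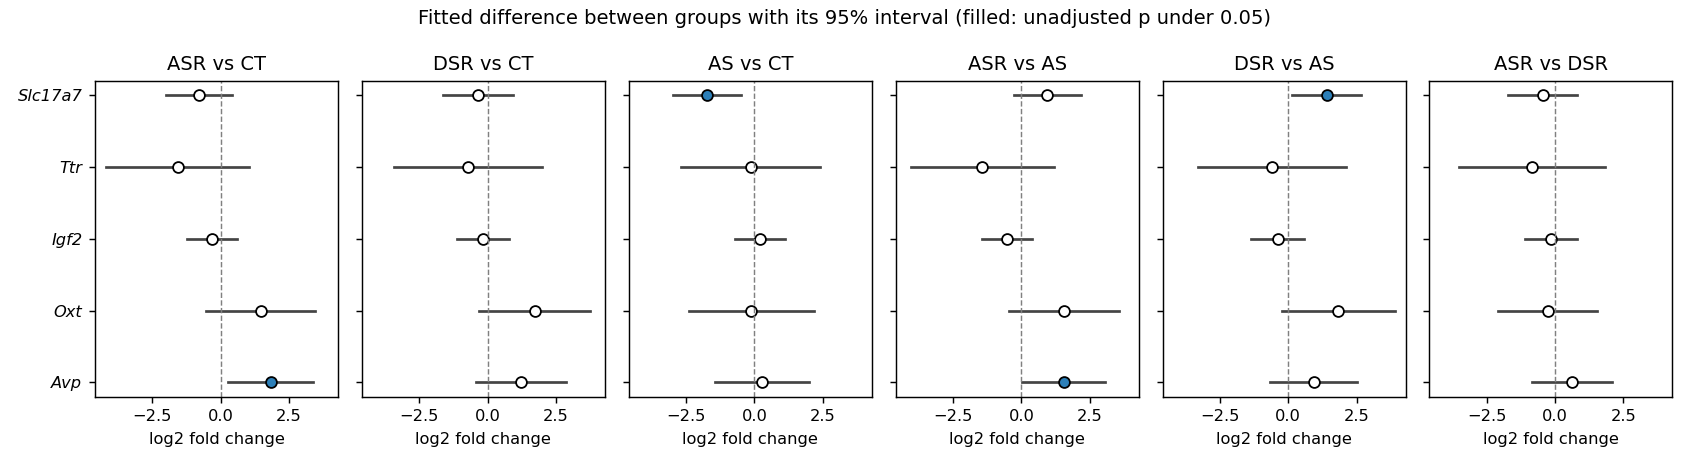
Fitted log2 fold change of each marker gene in the 6 comparisons, with its 95% interval; filled points have an unadjusted p under 0.05. The filled points are Slc17a7 in AS vs CT and DSR vs AS and Avp in ASR vs CT and ASR vs AS; no gene of any kind passed an adjusted p of 0.05 in these comparisons.

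The count of markers called is set beside the share of all genes called by the same rule. In all 6 comparisons, 0 of 5 markers and 0% of all genes had an edgeR adjusted p below 0.05. At an unadjusted p under 0.05 the count was 1 of 5 in ASR vs CT (4.92% of all genes), 0 of 5 in DSR vs CT (4.63%), 1 of 5 in AS vs CT (21.4%), 1 of 5 in ASR vs AS (8.65%), 1 of 5 in DSR vs AS (25.3%) and 0 of 5 in ASR vs DSR (4.29%). The edgeR test for any difference among the 4 groups gave an adjusted p of 0.324 for Slc17a7 and 0.354 for Avp. It gave 0 of 5 markers at an unadjusted p under 0.05, against 15.6% of all genes. DESeq2, run on all groups or on 2 at a time, gave a p for a marker in 51 tests, of which 0 had an adjusted p below 0.05 and 5 had none assigned.

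Many genes had levels that moved with Slc17a7, even within groups. In an edgeR fit with group and the log2 CPM of Slc17a7, 721 of 16274 genes (4.43%) had a slope with an adjusted p under 0.05, and 570 of them rose with Slc17a7 and 151 fell. For Ttr there were 71 such genes (0.436%) and for Igf2 79 (0.485%), and all of both lists rose. The lists of Ttr and Igf2 shared 68 genes, 95.8% of the Ttr list and 86.1% of the Igf2 list. None of the 71 Ttr genes was among the 570 that rose with Slc17a7. The 570 were a small part of the 16274 genes, so few shared genes would be likely anyway for so short a list. This overlap was not tested. For Oxt and Avp there were 0 (0%). Without the rat with the highest level of the gene the counts were 515 for Slc17a7 (DSR Grp7-R7 left out) and 40 and 39 for Ttr and Igf2 (CT Grp7-R12 left out). Without AS rat Grp7-L10 the count for Slc17a7 was 292.

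The genes with a slope on Slc17a7 within groups were then read in each comparison of groups, a step chosen after seeing the data. Of the 570 genes that rose with it, 433 (76.0%) were lower in AS than in CT rats at an unadjusted p under 0.05 and 0 were higher, against 11.8% lower and 9.63% higher over all genes. Their median log2 fold change was -0.52, against 0.02 over all genes. In DSR vs AS, 361 (63.3%) of them were higher, against 13.3% of all genes, and in ASR vs AS 140 (24.6%), against 5.15%. In ASR vs CT 58 (10.2%) were lower, against 2.64%, and in DSR vs CT 4 (0.702%), against 1.87%. Slopes and comparisons come from the same libraries, so these shares are a description and were given no test.

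**Figure D4:**
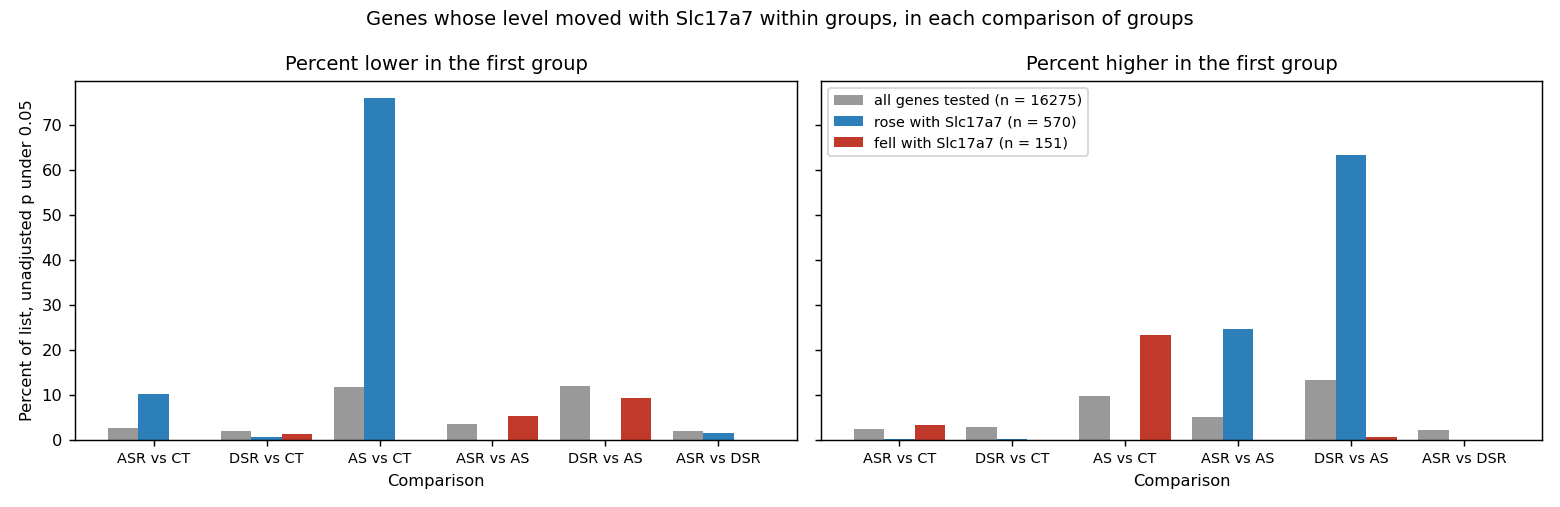
Percent of genes lower (left) or higher (right) in the first group of each comparison at an unadjusted p under 0.05, for all genes tested (grey), the 570 genes that rose with Slc17a7 within groups (blue) and the 151 that fell (red). The blue bars reach 76.0% lower in AS vs CT and 63.3% higher in DSR vs AS.

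The list was also defined without the AS rats. With the slope fitted on CT, ASR and DSR rats alone, 363 genes passed and 326 rose with Slc17a7, of which 293 were among the 570. Of the 323 of them tested in the full fit, 273 (84.5%) were lower in AS than in CT rats. In DSR vs AS, 237 (73.4%) of them were higher, against 13.3% of all genes, and in ASR vs AS 87 (26.9%), against 5.15%. These genes were chosen for rising with Slc17a7, which was already seen to be low in AS rats. The CT, ASR and DSR rats that defined the list were also the rats compared with AS. These shares are therefore a description as well and were given no test. With Grp7-L10 left out of both steps, 262 genes rose with Slc17a7, and 229 of them (87.4%) were lower in AS than in CT rats, against 15.5% of all genes.

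Counts of genes that differed between groups changed when the level of Slc17a7 entered the model. In AS vs CT, 3483 genes had an unadjusted p under 0.05 in edgeR, and 962 (5.91%) did with Slc17a7 as a covariate. In DSR vs AS the counts were 4111 and 1512 (9.29%), and in ASR vs AS 1408 and 640 (3.93%). With Ttr in its place they were 3286, 4081 and 1405, and with Igf2 3192, 3891 and 1296. With Oxt they were 3464, 3149 and 1421, and with Avp 3905, 3535 and 1016. In the 3 comparisons without AS rats, the counts ran from 663 to 1197 under any of the 5 covariates, against 800, 753 and 699 without one. A covariate that differs between the groups compared can lower such counts by itself. Slc17a7 was the marker with the smallest p between groups, so its counts cannot be weighed against those of the other markers.

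Without AS rat Grp7-L10 the comparisons with AS rats gave genes past an adjusted p of 0.05 in edgeR. There were 1299 in AS vs CT and 904 in DSR vs AS, and none in ASR vs AS, where 2213 had an unadjusted p under 0.05. Adjusted counts without another single rat are not given here. Grp7-L10 was not the rat that changed the unadjusted counts most. AS vs CT gave 4128 without Grp7-L10 and 4786 without CT rat Grp7-R5. DSR vs AS gave 4576 without Grp7-L10 and 5265 without DSR rat Grp8-L9. Grp7-L10 was left out because it had the most Slc17a7 of the AS rats. The other AS rats had 19.1 to 153 CPM and the CT rats 301 to 692 CPM, so the covariate then nearly stood for group. With Grp7-L10 left out and Slc17a7 as a covariate, the adjusted counts were 0 in AS vs CT, DSR vs AS and ASR vs AS. At an unadjusted p under 0.05 there were 1196, 1134 and 860 genes. With all rats and Avp as a covariate, 456 genes passed in AS vs CT, and no other covariate gave an adjusted call. Group and Slc17a7 level overlap in these rats, and such overlap can lower the counts by itself. A difference of behavior and a difference in the amount of cortical tissue or transcript therefore cannot be told apart from these counts.

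**Figure D5:**
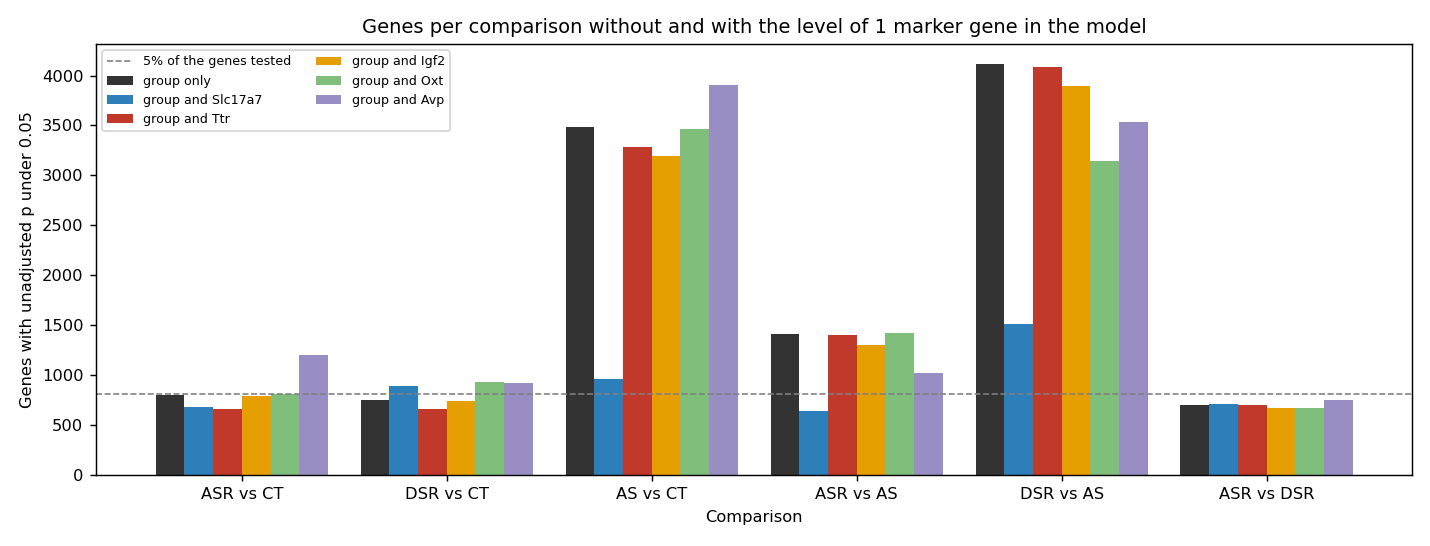
Genes per comparison below an unadjusted p of 0.05, with group alone (black) or group and the level of 1 marker gene in the model (colours); the dashed line marks 5% of the genes tested. With Slc17a7 in the model the bars of AS vs CT, ASR vs AS and DSR vs AS fall from 3483, 1408 and 4111 to 962, 640 and 1512.

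The genes most like each marker over the 23 rats, by Spearman rho of log2 CPM, are known here only by identifier. For Slc17a7 they were ENSRNOG00000028417 (rho = 0.99) and ENSRNOG00000003741 (0.99), and 456 genes had a rho of at least 0.8 and 31 of -0.8 or lower. For Ttr they were ENSRNOG00000001092 (0.98) and ENSRNOG00000057855 (0.97), and 18 genes had a rho of at least 0.8. For Igf2 they were ENSRNOG00000026870 (0.93) and ENSRNOG00000010378 (0.91), and 13 genes reached 0.8. For Oxt they were ENSRNOG00000013927 (0.71) and ENSRNOG00000019955 (0.68), and for Avp ENSRNOG00000016547 (0.80) and ENSRNOG00000007127 (0.69), and no gene reached 0.8 for either. The rats share their libraries across all of these values, so the ranks are a description.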

How the data were processed

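The authors used Trimmomatic 0.36 for trimming, STAR 2.5.2b for alignment to Rnor6.0 and featureCounts (Subread 1.5.2) for exon counts of uniquely aligned reads, per the labels and the study's methods. Each of the 23 deposited files lists unnormalized counts for 32552 genes. Groups came from the treatment labels. CPM, fold changes and p-values were computed here with edgeR 4.0.16 in R 4.3.3 (TMM, filterByExpr with a minimum count of 10 and total of 15, all groups in one quasi-likelihood fit, Benjamini-Hochberg over 16275 genes), and log2 CPM used a prior count of 2. Permutation tests and correlations used scipy 1.17.1. Alternatives included DESeq2 1.42.0, and tests were checked on simulated data.

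The members and lists were chosen with earlier results of these data known. Named genes are the 5 members and, for each, the 2 identifiers with the highest Spearman rho. The 7 marker lists fixed for other cell types were not read, since the reference gene table holds Ensembl identifiers for 0 of 47357 genes. No per-sample column outside these samples was present. Each library came from 1 rat, so p-values measure the spread between rats. Library totals of 18967015 to 28137676 counts leave counting error mainly in Oxt and Avp.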

Additional observations from a re-analysis of the deposited data

Results flagged for a closer look

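In 7 of 20 sets of values (5 genes in 4 groups), 1 rat stood apart from the rest of its group by Dixon's test on CPM. The test gives about 1 flag in 20 sets by chance if values are normally spread and sets are independent. Neither was checked, the test was not run on log2 CPM, and pairs of genes were flagged in the same rats. The number of flags therefore cannot be weighed against that rate. Slc17a7 in AS rat Grp7-L10 was 565 CPM, against 19.1 to 153 CPM in the other AS rats. Ttr in CT rat Grp7-R12 was 2057 CPM, against 10.6 to 39.4 CPM, and Igf2 in the same rat was 157 CPM, against 23.5 to 34.9 CPM. Ttr in DSR rat Grp7-L2 was 922 CPM, against 33.9 to 58.6 CPM, and Igf2 in the same rat was 94.0 CPM, against 28.8 to 42.6 CPM. Oxt in ASR rat Grp7-L4 was 3.86 CPM, against 0 to 0.224 CPM, and Avp in the same rat was 5.27 CPM, against 0.128 to 0.639 CPM. The flags thus fell on 4 rats, and why those rats differ was not tested.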

How the results depend on the processing

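Of 227 log2 fold changes computed under RLE factors, no filter, DESeq2, 2-group fits, cohort as a covariate or 1 cohort by itself, 206 kept their direction and side of the threshold, 3 passed it and 18 changed sign; DESeq2 gave 5 adjusted p-values as NA, and the edgeR fits of only 2 groups gave no value where the filter dropped Oxt or Avp, while those of DESeq2 gave no p for members of several comparisons, Ttr and Igf2 among them, which are not counted here. Slc17a7 passed in cohort 8 by itself in AS vs CT (-4.73), ASR vs AS (3.99) and DSR vs AS (4.13), so that 1 member was called in each. In cohort 8 the sign changed for Ttr in ASR vs CT (2.53), DSR vs CT (0.67), AS vs CT (4.58) and ASR vs DSR (1.86), for Igf2 in ASR vs CT (0.62), DSR vs CT (0.20) and ASR vs DSR (0.42), for Oxt in ASR vs CT (-3.87), AS vs CT (0.61) and ASR vs AS (-4.48), and for Avp in ASR vs AS (-0.67) and ASR vs DSR (-1.22). In cohort 7 it changed for Igf2 (-0.46) and Avp (-0.58) in AS vs CT, Ttr (1.69) and Igf2 (0.44) in DSR vs AS, and Oxt (0.54) in ASR vs DSR, and with cohort as a covariate for Ttr in AS vs CT (0.16). The cause was not tested.

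With each rat left out in turn, Ttr ranged from -1.996 to 2.38 in ASR vs CT, -3.07 to 3.22 in DSR vs CT, -1.23 to 3.80 in AS vs CT, -2.91 to 0.49 in DSR vs AS and -1.27 to 1.496 in ASR vs DSR. Igf2 ranged from -0.46 to 0.44, -0.61 to 0.57, -0.24 to 0.95, -0.81 to 0.064 and -0.27 to 0.30 in the same comparisons. Oxt ranged from -1.51 to 1.85 in ASR vs CT, -0.64 to 0.26 in AS vs CT, -1.39 to 2.11 in ASR vs AS and -3.22 to 0.072 in ASR vs DSR, and Avp from -0.018 to 1.82 in ASR vs AS and -0.95 to 0.92 in ASR vs DSR. Slc17a7 kept its sign in all 6 comparisons. Members called ranged from 0 to 1 in AS vs CT, DSR vs AS and the test of all 4 groups (1 without AS Grp7-L10 in each). Genes with an unadjusted p under 0.05 ranged from 560 to 1276 in ASR vs CT, 609 to 1208 in DSR vs CT and 2434 to 4786 in AS vs CT. They ranged from 939 to 2213 in ASR vs AS, 2382 to 5265 in DSR vs AS and 357 to 1859 in ASR vs DSR. These counts moved by more than 1.5 times without CT Grp7-R5 (1276), CT Grp8-L11 (1208), AS Grp7-L10 (2213), DSR Grp7-R7 (2382 and 357), DSR Grp8-L9 (1859), ASR Grp7-R4 (431) or ASR Grp8-R7 (1315).

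Alternatives chosen after seeing the data included the marker genes as covariates. These moved counts by more than 1.5 times for Slc17a7 in AS vs CT (962), ASR vs AS (640) and DSR vs AS (1512). Others were the slopes on Slc17a7 without AS Grp7-L10 or the AS group, and correlations without the rats with the most Ttr or the most Oxt and Avp. The reading of the genes that rose with Slc17a7 in comparisons of groups was also chosen after seeing the data. The genes with a slope on Slc17a7 numbered 2129 with no group term, 292 without AS Grp7-L10 and 363 without the AS group; those lower in AS vs CT numbered 229 and 273, and those higher in DSR vs AS 223 and 237, and in ASR vs AS 183 and 87. The slope counts of Ttr and Igf2 were 40 and 39 without CT Grp7-R12, of Oxt 1 with no group term, and of Avp 2 with no group term and 1 with RLE factors. Pairs of genes with an adjusted p under 0.05 numbered 2, and 1 with a prior count of 0.5, in either cohort, or without the 2 rats farthest from the median, where Oxt and Avp no longer passed (r = 0.51, 0.70, 0.52 and 0.30). No paired analysis was possible because no rat code is shared between groups. Low counts limit Oxt and Avp, and 3 libraries had no Oxt count.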
